A study of Mus musculus with 56 samples.

Results

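The 7 genes that set the phosphorylation of the pyruvate dehydrogenase complex were followed in mouse heart over the day. They were chosen by name from 22864 listed genes: the pyruvate dehydrogenase kinases Pdk1, Pdk2, Pdk3 and Pdk4, the pyruvate dehydrogenase phosphatases Pdp1 and Pdp2, and Pdha1, the E1 alpha subunit that both kinds of enzyme act on. TPM is used here for reads per base of exon, scaled to a fixed sum in each library. All 7 reached an average of 1 TPM, the minimum that 13886 genes met, so each of them was tested.

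PolyA RNA of hearts was sequenced from female mice of the inbred strain C57BL/6J, adult and 9 weeks old, with no genetic change in either group. On a cycle of 12 h light and 12 h dark they had eaten for 7 days in the light phase alone (DRF, daytime-restricted feeding) or in the dark phase alone (NRF, nighttime-restricted feeding). Hearts were taken every 4 h from ZT0 to ZT24 (zeitgeber time, counted from lights on), and 4 libraries at each of the 7 times under each regimen made 14 groups and 56 libraries. DRF was compared with NRF, and free feeding was not analysed here. The mice were housed in groups, and the labels do not tie a library to a mouse or cage, so p-values measure the spread between these samples.

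The pyruvate dehydrogenase complex sits in the mitochondrial matrix and turns pyruvate into acetyl-CoA, which commits carbohydrate to oxidation. Kinases of the Pdk family phosphorylate the E1 alpha subunit and switch the complex off, and the Pdp phosphatases take the phosphate away and switch it on. In heart and skeletal muscle Pdk4 is known as the kinase whose mRNA rises in fasting and with fatty acid supply, whereas Pdk2 is the widely expressed form.

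The reads recovered for the listed genes summed to 29480609 to 53323418 in a library, which is not the sequencing depth. The shares of these reads from mitochondrially encoded genes were 18.1% to 24.8% under DRF and 16.5% to 22.7% under NRF. The lowest read count of a member in any library was 105, for Pdk3. The 6 cardiomyocyte markers summed to 17733 to 24824 TPM under DRF and 21109 to 29836 TPM under NRF, and the tissue label thus had its defining markers. Markers of other cells differed strongly between single libraries within both regimens: 4 atrial markers (94.6 to 5459 TPM under DRF, 129 to 4289 under NRF), 4 erythrocyte markers (1840 to 66137 and 1655 to 42274) and 5 adipocyte markers (1.70 to 144 and 2.97 to 56.3). In bulk heart tissue a change in the share of a cell type and a change of RNA per cell cannot be told apart.

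Pdk4, whose protein inhibits the complex, had the largest changes among the members. The gene (ENSMUSG00000019577) lies on the minus strand of chromosome 6, 5483351 to 5496309 in GRCm38, with an exon length of 3511 bases. Under NRF, Pdk4 was high in the light phase: its mean was 647 ± 568 TPM (SD, n = 4) at ZT4 and 72.3 ± 6.15 TPM at ZT20. Under DRF the order turned round, with 1285 ± 289 TPM at ZT20 and 65.8 ± 18.3 TPM at ZT8. The ratio of the highest to the lowest group mean was 19.5 under DRF and 8.95 under NRF.

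At ZT20 the DRF libraries held 1447, 1597, 1136 and 959 TPM of Pdk4 in replicates 1 to 4, and the NRF libraries 68.0, 66.2, 78.8 and 76.2 TPM. The groups were far apart, and the DRF mean was 17.8 times the NRF mean. The difference was 4.11 on the log2(TPM + 1) scale (SE 0.458, adjusted p = 4.26e-08, limma), and it remained between 3.99 and 4.24 when each of the 8 libraries was left out in turn. In these libraries the atrial sums were 94.6 to 2622 TPM under DRF and 434 to 1593 TPM under NRF, the erythrocyte sums 1840 to 51385 and 2845 to 40042 TPM, and the adipocyte sums 1.70 to 41.0 and 7.85 to 13.6 TPM, ranges that overlapped. With the 3 sums as covariates the difference was 4.05 (adjusted p = 6.17e-08). The share of mitochondrially encoded reads did not overlap at ZT20, at 22.3% to 24.8% under DRF and 19.4% to 20.4% under NRF, and with those genes left out of the TPM the difference was 4.24 (adjusted p = 4.07e-08).

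At ZT24 the DRF libraries held 1058, 1025, 349 and 810 TPM of Pdk4 and the NRF libraries 141, 247, 211 and 190 TPM. All DRF libraries lay above all NRF libraries, and the difference of 1.94 (SE 0.458, adjusted p = 0.00537, limma) was called without each of the 8 libraries in turn, though not without replicate 1 of every group (1.62, adjusted p = 0.0784). At ZT0 the values were 906, 391, 422 and 808 TPM under DRF and 267, 125.1, 177 and 272 TPM under NRF. They did not overlap either, with a difference of 1.55 (adjusted p = 0.0203), but that call was lost without DRF replicate 1 or 4 or NRF replicate 2 or 3 (adjusted p up to 0.0882), and without replicate 1 or 4 of every group (0.132 and 0.0709).

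In the middle of the light phase the direction was the opposite. At ZT8 Pdk4 stood at 55.3, 93.0, 59.97 and 54.9 TPM under DRF and at 286, 422, 149 and 449 TPM under NRF. The 4 DRF libraries were below the 4 NRF libraries, and the difference was -2.21 (SE 0.458, adjusted p = 0.0151, limma). The call was lost without DRF replicate 1, 3 or 4 or NRF replicate 2 or 4 (adjusted p up to 0.139), while the difference remained between -2.54 and -2.01, and without replicate 2 or 4 of every group (0.0647 and 0.296).

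At ZT16 Pdk4 was at 201, 291, 160 and 228 TPM under DRF and at 105, 86.6, 48.95 and 74.0 TPM under NRF. The groups did not overlap and the difference was 1.49 (adjusted p = 0.0390, limma), a call lost without replicate 2, 3 or 4 of either group (adjusted p up to 0.138). It was also lost without any replicate number in every group (0.0544 to 0.173) and with no filter on low values (0.0626). At this ZT the sums of 3 of 9 marker lists did not overlap either, while at the other ZTs all 9 did: endothelial markers were at 354 to 388 TPM under DRF and 409 to 513 TPM under NRF, smooth muscle markers at 167 to 236 and 240 to 292 TPM, and skeletal muscle markers at 967 to 1073 and 854 to 939 TPM. Their part in the difference was not tested. At ZT12 the regimens overlapped, at 111 to 171 TPM under DRF and 68.2 to 158 TPM under NRF, and the difference was 0.18 (95% interval -0.74 to 1.099).

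ZT4 under NRF was the least uniform group of Pdk4. Its 4 libraries held 231, 106, 1275 and 975.1 TPM, so replicates 3 and 4 were within the range of DRF ZT20 and replicate 2 was within the range of NRF ZT12. The DRF libraries of ZT4 held 570, 256, 172 and 202 TPM, and the difference was -0.65 (95% interval -1.57 to 0.28, adjusted p = 0.617, limma). That interval uses 1 spread shared by all 14 groups, so it does not measure the wider spread of these 4 NRF libraries. The difference was -1.30 to -0.11 without each library in turn, and 0.10 without replicate 3 of every group. Angptl4, an inhibitor of lipoprotein lipase, spread the same way over these NRF libraries, with 15.4, 3.72, 45.6 and 54.4 TPM in replicates 1 to 4. The erythrocyte sums of the 4 libraries were 2488, 1655, 32817 and 12208 TPM and the atrial sums 162, 1160, 241 and 129 TPM, and the part of these in the spread was not tested.

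**Figure D1:**
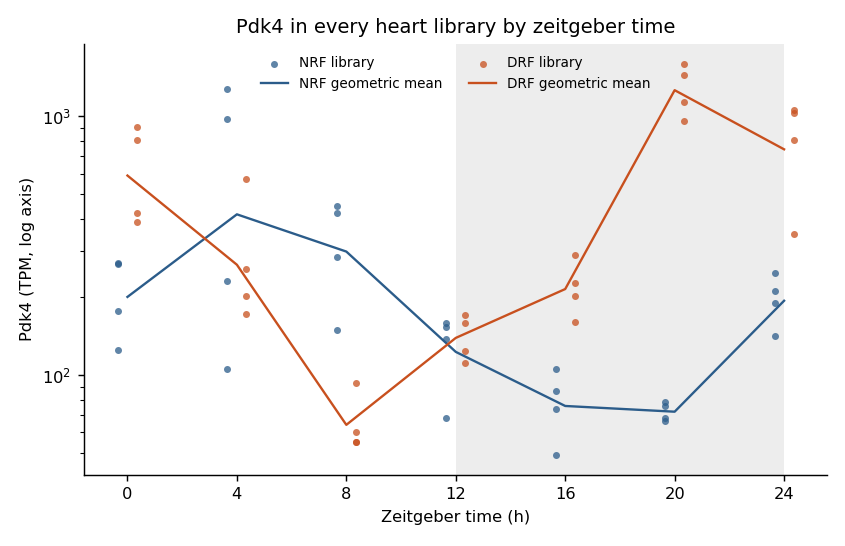
Pdk4 in TPM on a log axis against zeitgeber time in h, 1 point for each of the 56 libraries, with lines through the geometric means of 4 libraries and the dark phase shaded. The DRF line peaks at ZT20, where the libraries lie between 959 and 1597 TPM, and the NRF line peaks at ZT4, where the libraries spread from 106 to 1275 TPM.

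The plot of Pdk4 by zeitgeber time shows both the crossing of the lines between ZT0 and ZT4 and the wide gap at ZT20. A 24 h wave was fitted to log2(TPM + 1) in each regimen to put numbers on the amplitude (the height of the wave above its midline) and on the time of the peak. The amplitude of Pdk4 was 1.33 (SE 0.192) under NRF, with the peak at ZT5.15 (SE 0.494 h). Under DRF the amplitude was 1.85 (SE 0.180) and the peak was at ZT21.5 (SE 0.382 h). Ordered by the size of the fitted amplitude on this scale, which lowers that of genes of few TPM, Pdk4 was rank 1 of 13886 genes under DRF and rank 12 under NRF, and with 0.1 added in place of 1 it was rank 2 and rank 31.

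The peak of Pdk4 under DRF came 7.69 h earlier than under NRF (95% interval 6.44 to 8.94 h), which on a 24 h clock is the same as 16.3 h later. A gene that kept to the light would show no shift, and a gene that kept to the feeding phase, which was moved by 12 h, would show 12 h. Pdk4 differed from both: its rhythm differed between the regimens by clock time (adjusted p = 2.85e-10, limma) and also after the DRF times had been moved by 12 h to count from the feeding phase (adjusted p = 2.95e-07). On the feeding clock the DRF peak came 4.31 h (95% interval 3.06 to 5.56 h) after the NRF peak. The difference in amplitude, 0.52, had a 95% interval of -0.0031 to 1.05.

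Aligned to the start of the feeding phase (food time 0 h, which is ZT0 under DRF and ZT12 under NRF), Pdk4 was higher under DRF around the start of feeding. The difference was 2.07 (SE 0.458, adjusted p = 0.00107, limma) at food time 20 h, where DRF ZT20 was set against NRF ZT8. It was 2.42 (SE 0.397, adjusted p = 1.92e-05) at food time 0 h, where DRF ZT0 and ZT24 were set against NRF ZT12, and 1.80 (SE 0.458, adjusted p = 0.00961) at food time 4 h. Of these, the call at 4 h was lost without DRF ZT4 replicate 1, the library with 570 TPM (difference 1.44, adjusted p = 0.0638), and without replicate 1 of every group (0.102). The differences at food times 8, 12 and 16 h were -0.17, -0.50 and -0.96 and did not pass the test. The last of these passed it without NRF ZT4 replicate 2 (difference -1.62, adjusted p = 0.00698, limma). Without each of the 8 libraries in turn it ran from -1.62 to -0.42 (adjusted p up to 0.529).

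Averaged over the 28 libraries of a regimen, with ZT0 and ZT24 both counted, Pdk4 was 493 TPM under DRF and 237 TPM under NRF. The difference in mean level was 0.75 on the log2(TPM + 1) scale (SE 0.183, 95% interval 0.38 to 1.12, adjusted p = 0.00266, limma). DRF was higher at 5 of 7 ZTs, among them ZT0 and ZT24, which are the same clock time, and ZT12, where the interval of the difference held 0. Without ZT12 the difference in mean level was 0.54 (adjusted p = 0.0761, limma). Pdk4 was the only member called in mean level, and 1.69% of the genes tested were called higher under DRF, against 24.3% called lower. With median-of-ratios rescaling of the libraries 808 genes were called higher and 1021 lower, in place of 234 and 3373, and Pdk1, Pdk2 and Pdha1 were then also called higher. Pdk2 and Pdha1 were also called higher with mitochondrially encoded genes left out of the TPM, and Pdk1 and Pdha1 with the marker sums as covariates.

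The promoter window of Pdk4 is shown because the gene had the largest changes in level, with those of Pdp2 and Pdk2, the members whose windows held the E-box CACGTG, the site that the clock activators CLOCK and BMAL1 bind. Windows run from 250 bases before to 50 bases after a RefSeq start site (GRCm38.p6) and read 5′ to 3′ along the gene's strand, with the matches of any of the motifs searched in capitals.
Pdk4, chr6:5496229-5496528, minus strand: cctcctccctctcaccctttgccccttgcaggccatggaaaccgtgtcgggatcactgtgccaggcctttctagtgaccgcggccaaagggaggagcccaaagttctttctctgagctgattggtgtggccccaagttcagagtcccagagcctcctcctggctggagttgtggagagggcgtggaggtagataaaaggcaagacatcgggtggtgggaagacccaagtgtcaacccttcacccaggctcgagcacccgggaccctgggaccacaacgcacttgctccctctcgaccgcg
Pdp2, chr8:104591222-104591521, plus strand: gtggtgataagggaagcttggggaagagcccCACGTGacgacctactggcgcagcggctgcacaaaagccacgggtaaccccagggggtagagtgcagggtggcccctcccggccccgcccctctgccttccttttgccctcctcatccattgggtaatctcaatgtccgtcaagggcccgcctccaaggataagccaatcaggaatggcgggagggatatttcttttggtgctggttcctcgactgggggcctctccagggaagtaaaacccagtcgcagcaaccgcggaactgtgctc
Pdk2, chr11:95041322-95041621, minus strand: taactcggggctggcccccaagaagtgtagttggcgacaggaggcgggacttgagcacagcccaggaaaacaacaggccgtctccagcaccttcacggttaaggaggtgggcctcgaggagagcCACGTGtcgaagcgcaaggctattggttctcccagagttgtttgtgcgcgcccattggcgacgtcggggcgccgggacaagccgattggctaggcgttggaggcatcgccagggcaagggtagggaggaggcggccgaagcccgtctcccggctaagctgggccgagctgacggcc

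The motifs were searched on both strands in the 8 windows of 6 members, Pdp1 being the member with none: CACGTG, the forkhead site GTAAACA, the nuclear receptor core AGGTCA, the longer ERR site TCAAGGTCA that contains it, and the glucocorticoid receptor core GAACA. The window of Pdk4 held none of the 5. CACGTG was found once in Pdp2, at position -219 from the start site, and in 1 of the windows of Pdk2, at -126, and 7.15% of 32851 windows held it. GAACA was found in Pdk1 and Pdha1, and 41.7% of windows held it. None of the members' windows held the forkhead site, the nuclear receptor core or the ERR site, against 3.65%, 16.3% and 0.423% of all windows. These are matches of letters in 300 bases and not measurements of binding.

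Pdk2, on chromosome 11 (ENSMUSG00000038967, minus strand, 95026258 to 95041354), changed little over the day. Its library values ran from 203 to 296 TPM, with means of 255 ± 21.1 TPM under NRF and 267 ± 20.1 TPM under DRF (SD, n = 28). Its wave had an amplitude of 0.091 (SE 0.028) under NRF, peaking at ZT10.1, and of 0.067 (SE 0.028) under DRF, peaking at ZT2.15. The NRF rhythm passed the test narrowly (adjusted p = 0.0362, limma) and the DRF rhythm did not (adjusted p = 0.144). The NRF call was lost without any 1 of the 4 replicate numbers, with adjusted p from 0.0781 to 0.185, and without any of the 5 ZTs from ZT8 to ZT24 (0.0635 to 0.195). It was also lost with an F test over 6 clock phases (0.186) and with a replicate block (0.0504). Without ZT4 the DRF amplitude was 0.11 and its rhythm passed the test (adjusted p = 0.0287). The rhythms differed between the regimens (adjusted p = 0.0162), a call that was lost without replicate 3 or 4 (adjusted p = 0.0826 and 0.154), without ZT12 or ZT24 (0.171 and 0.161) and with an F test over 6 clock phases (0.0690). The peak came 7.99 h earlier under DRF (95% interval 3.78 to 12.2 h).

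At ZT24 Pdk2 stood at 296, 258, 269 and 285 TPM under DRF and at 237, 255, 203 and 209 TPM under NRF. The groups were separate, by 0.30 on the log2(TPM + 1) scale (SE 0.067, adjusted p = 0.00347, limma), a call kept without each single library and lost without replicate 3 of every group (adjusted p = 0.103). At this ZT 6 of the 7 members were higher under DRF with an unadjusted limma p under 0.05, a cut-off whose share over all genes was not counted. Among them were the uncalled Pdk1 (0.18, adjusted p = 0.0898), Pdp1 (0.20, 0.0938) and Pdha1 (0.15, 0.105), and the ranges of Pdp1 and Pdha1 did not overlap. At ZT0, the same clock time a day earlier, the ranges of Pdk2 overlapped, at 277 to 290 TPM under DRF and 235 to 286 TPM under NRF. Pdk2 overlaps the antisense gene Gm11513, and since the use of strand in the counting was not given in the sources used here, reads of the 2 cannot be told apart.

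Pdk1, on chromosome 2 (ENSMUSG00000006494, plus strand, 71873224 to 71903858), is the kinase known as a target of the hypoxia factor HIF1. It ran from 42.4 to 61.7 TPM, with means of 49.3 ± 3.41 TPM under NRF and 51.5 ± 3.95 TPM under DRF (SD, n = 28). Neither rhythm passed the test (adjusted p = 0.221 under NRF and 0.0627 under DRF, limma), whereas the difference between them did (adjusted p = 0.0172). The DRF rhythm passed without ZT0, ZT4 or ZT8 (adjusted p = 0.0448, 0.0338 and 0.0426). The fitted peaks were ZT11.4 under NRF and ZT0.97 under DRF, with amplitudes of 0.051 and 0.076, which are 1.07 and 1.11 times from trough to peak. The call on the difference was lost under 9 of 19 alternatives. Among them were leaving out replicate 1 or 3 (adjusted p = 0.0650 and 0.200), leaving out ZT12, ZT16 or ZT24 (0.189, 0.0611 and 0.0566) and median-of-ratios rescaling (0.0978), with which the DRF peak came 9.20 h later in place of 10.4 h earlier.

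Pdk3, on the X chromosome (ENSMUSG00000035232, minus strand, 93764607 to 93832201), was the rarest member, at 2.55 to 5.99 TPM. Its means were 3.92 ± 0.681 TPM under NRF and 3.80 ± 0.854 TPM under DRF (SD, n = 28), and no rhythm, no difference in rhythm and no difference in level passed the test. The difference in rhythm on the feeding clock did pass without ZT0 (adjusted p = 0.0310, limma) or without ZT8 (0.0482). The fitted shift was 3.93 h earlier under DRF, with a 95% interval of -2.33 to 10.2 h that held no shift.

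Per base of exon, Pdk2 and Pdk4 made up most of the kinase mRNA, and which of them came first changed with time and regimen. At ZT20 Pdk4 took 79.5% ± 4.99 of the summed kinase TPM under DRF and 19.5% ± 1.62 under NRF (SD, n = 4). Pdk2 took 16.9% ± 4.22 and 66.8% ± 1.37 in the same groups. At ZT8 the shares of Pdk4 were 16.3% ± 3.94 under DRF and 47.7% ± 12.3 under NRF. The libraries did not overlap at either ZT: the share of Pdk4 was at least 73.1% under DRF and at most 20.99% under NRF at ZT20, and at most 22.1% and at least 31.1% at ZT8. Pdk1 took 8.02% of the kinase sum under DRF and 10.2% under NRF as means over 28 libraries, and Pdk3 0.620% and 0.812%.

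**Figure D2:**
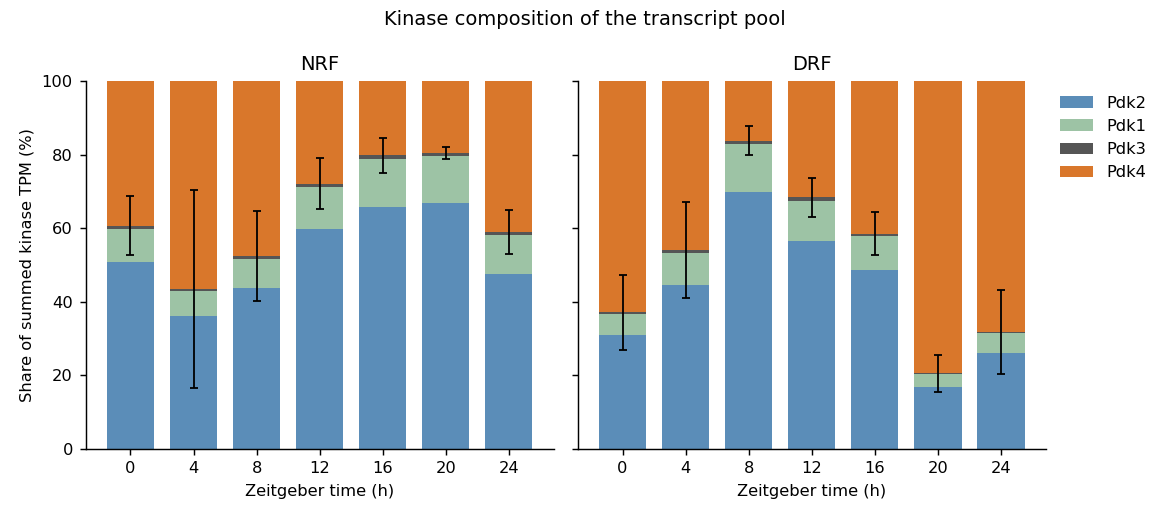
Mean share of each kinase in the summed kinase TPM (%) by zeitgeber time in h, NRF at left and DRF at right, with error bars for the SD of the Pdk4 share (n = 4 libraries). The Pdk4 share falls to 16.3% at ZT8 and reaches 79.5% at ZT20 under DRF, and ranges from 19.5% at ZT20 to 56.6% at ZT4 under NRF.

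The summed kinase mRNA followed Pdk4. Under DRF it was 1605 ± 267 TPM at ZT20 and 402 ± 18.9 TPM at ZT8, and under NRF it was 371 ± 3.61 TPM at ZT20 and 949 ± 562 TPM at ZT4 (SD, n = 4). Set against Pdha1, the substrate of the kinases, the kinase sum was 3.13 ± 0.709 times as high under DRF at ZT20 and 0.739 ± 0.0234 times under NRF. Set against the summed phosphatases it was 47.1 ± 14.1 times as high under DRF and 13.2 ± 0.150 times under NRF at that time. These are ratios of mRNA levels, and protein, enzyme activity and phosphorylation were not measured in these libraries.

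Pdp2, on chromosome 8 (ENSMUSG00000048371, plus strand, 104591451 to 104599026), is a phosphatase that activates the complex. It was the rarer of the phosphatases, at 6.80 to 16.6 TPM. Under NRF it was highest at ZT8 (12.4 ± 2.62 TPM) and lowest at ZT20 (7.25 ± 0.388 TPM), and under DRF it was highest at ZT20 (14.01 ± 2.58 TPM) and lowest at ZT12 (8.81 ± 1.52 TPM; SD, n = 4). The lowest time under NRF was thus the highest under DRF.

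At ZT20 the DRF libraries held 16.6, 10.5, 13.96 and 15.0 TPM of Pdp2 and the NRF libraries 7.14, 6.80, 7.73 and 7.35 TPM. All DRF values lay above all NRF values, with a difference of 0.85 (SE 0.144, adjusted p = 0.000112, limma) that was called without each of the 8 libraries in turn. In the same libraries, with their higher mitochondrial share under DRF, it was 0.99 (adjusted p = 3.71e-05) with mitochondrially encoded genes left out of the TPM. At ZT24 Pdp2 was at 15.1, 13.0, 15.0 and 11.7 TPM under DRF and at 12.8, 10.7, 7.03 and 7.83 TPM under NRF. The ranges overlapped through NRF replicate 1, and the difference of 0.50 (adjusted p = 0.0209) was lost without DRF replicate 1 or 3 or NRF replicate 3 or 4 (adjusted p up to 0.142), and without replicate 3 or 4 of every group (0.392 and 0.0641). At ZT12 the order was the other way, with 7.65 to 11.0 TPM under DRF and 11.5 to 12.2 TPM under NRF, ranges that did not overlap, but the difference of -0.39 did not pass the test (adjusted p = 0.0818).

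The rhythm of Pdp2 passed the test under NRF (amplitude 0.33, SE 0.066, peak ZT8.02, adjusted p = 6.82e-05, limma). Under DRF the amplitude was 0.21 (SE 0.064), the peak ZT21.1 and the adjusted p 0.0722. That p became 0.0350 without replicate 2, 0.0194 without ZT0, 0.0139 without ZT8 and 0.0396 with an F test over 6 clock phases, and the amplitude was 0.35 without ZT8 and 0.13 without ZT20. The rhythms differed by clock time (adjusted p = 7.05e-05) and were not called different when time was counted from the feeding phase (adjusted p = 0.478). The shift was 10.9 h (95% interval 8.15 to 13.7 h), an interval that held the 12 h by which feeding had been moved. At food time 8 h Pdp2 was higher under DRF by 0.48 (adjusted p = 0.0381), a call that was lost without any of 7 of the 8 libraries, all but DRF ZT8 replicate 4 (adjusted p up to 0.131). It was also lost without replicate 2, 3 or 4 of every group (0.0520 to 0.272) and with no filter on low values (0.0574).

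Pdp1, on chromosome 4 (ENSMUSG00000049225, minus strand, 11958184 to 11966452), is the other phosphatase, known to be stimulated by calcium. Its level was 16.7 to 27.7 TPM, above that of Pdp2 in all 56 libraries, with means of 21.8 ± 2.46 TPM under NRF and 21.6 ± 2.49 TPM under DRF (SD, n = 28). Both rhythms passed the test (adjusted p = 0.00165 under NRF and 0.00108 under DRF, limma). The amplitude was 0.15 (SE 0.031) under NRF with the peak at ZT9.40, and 0.17 (SE 0.033) under DRF with the peak at ZT4.26. The DRF rhythm was not called without ZT16 (adjusted p = 0.0782).

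The peak of Pdp1 came 5.14 h earlier under DRF (95% interval 2.99 to 7.30 h), an interval that held neither no shift nor 12 h. Its rhythm differed between the regimens by clock time (adjusted p = 0.00112, limma) and on the feeding clock (adjusted p = 0.000127). At ZT12 it stood at 20.9, 19.8, 18.4 and 19.5 TPM under DRF and at 23.9, 27.5, 22.3 and 21.4 TPM under NRF. These ranges did not overlap, but the difference of -0.26 (adjusted p = 0.0336) was lost without any of 6 libraries, DRF replicate 2, 3 or 4 or NRF replicate 1, 2 or 3 (adjusted p up to 0.166), and with the marker sums as covariates (-0.18, adjusted p = 0.180). It was also lost without replicate 1, 2 or 3 of every group (0.0660 to 0.240), with median-of-ratios rescaling (-0.19, adjusted p = 0.116), without mitochondrially encoded genes (-0.24, 0.105) and on the deposited values (-0.24, 0.0781).

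On the feeding clock Pdp1 was lower under DRF at 16 h (-0.28, adjusted p = 0.00691) and 20 h (-0.23, adjusted p = 0.0280). The first call was lost without NRF ZT4 replicate 4 (adjusted p = 0.0561), and the second without DRF ZT20 replicate 2 or 4 or NRF ZT8 replicate 3 (adjusted p up to 0.198). With median-of-ratios rescaling neither was called (-0.17 and -0.10, adjusted p = 0.121 and 0.378), nor without replicate 2 or 4 of every group (0.0720 to 0.196). The call at 16 h was also lost with the marker sums as covariates (-0.22, adjusted p = 0.0511). That at 20 h was lost without replicate 3 of every group (0.0913), without mitochondrially encoded genes (-0.098, 0.531) and on the deposited values (-0.094, 0.512).

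Pdha1, on the X chromosome (ENSMUSG00000031299, minus strand, 160122209 to 160138413), encodes the subunit that carries the regulatory serines. It was the most abundant member as a mean (509 TPM over all libraries) and the least variable, at 443 to 563 TPM. Its means were 501 ± 22.2 TPM under NRF and 518 ± 29.6 TPM under DRF (SD, n = 28), and its amplitudes of 0.025 and 0.032 did not pass the test (adjusted p = 0.544 and 0.533, limma). Neither did the difference in rhythm (adjusted p = 0.301) or in level (0.041, 95% interval -0.0031 to 0.084, adjusted p = 0.1605). The difference in level was 0.10 (adjusted p = 0.00223) with median-of-ratios rescaling, 0.083 (0.0429) without mitochondrially encoded genes and 0.061 (0.0298) with the marker sums as covariates, and was called with these 3. Pdha1 overlaps Map3k15, a protein-coding gene on the opposite strand, so the same limit of strand applies.

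**Figure D3:**
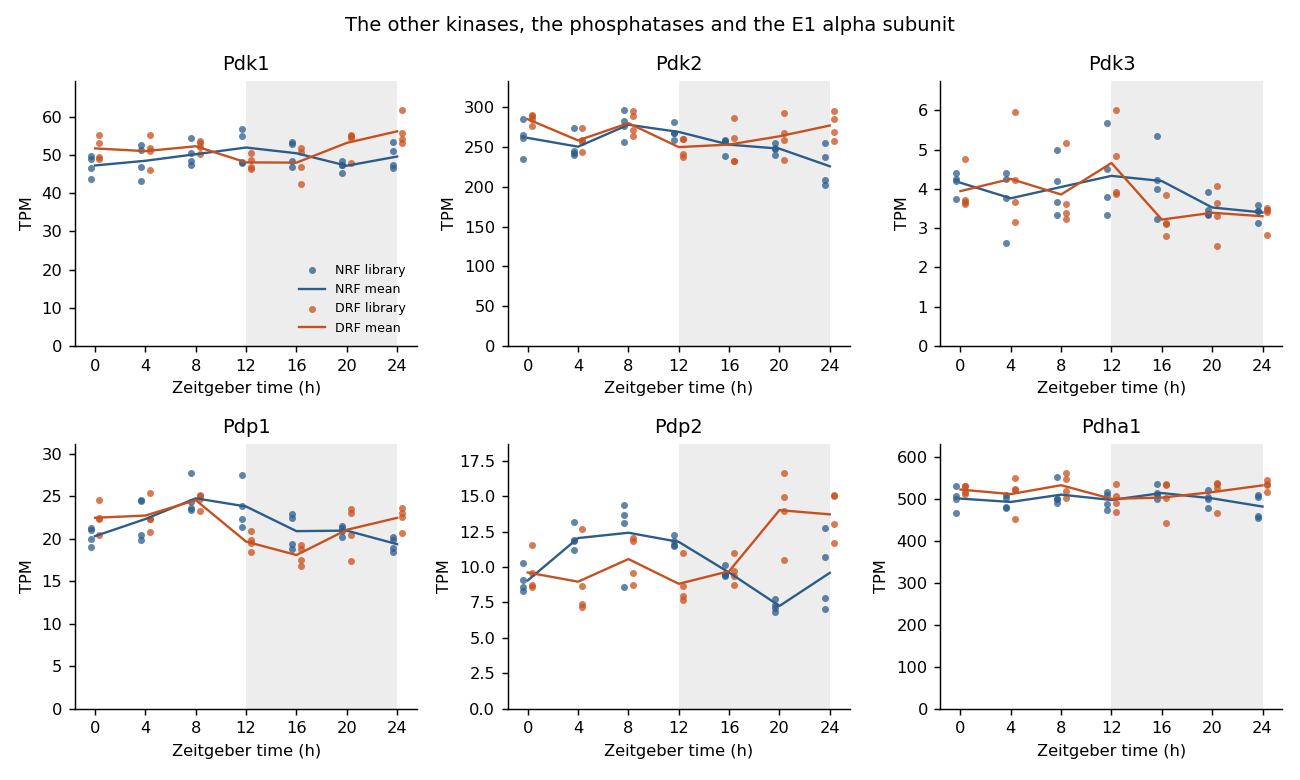
TPM of Pdk1, Pdk2, Pdk3, Pdp1, Pdp2 and Pdha1 against zeitgeber time in h, 1 point for each of the 56 libraries, with lines through the means of 4 libraries, vertical axes from 0 and the dark phase shaded. The lines of Pdp2 cross, from 8.96 TPM under DRF and 12.0 under NRF at ZT4 to 14.01 and 7.25 at ZT20, whereas those of Pdha1 stay between 483 and 534 TPM.

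The panels of the other 6 members show that their daily range was small beside that of Pdk4. From trough to peak of the fitted wave, Pdk4 changed 6.30 times under NRF and 13.1 times under DRF. Pdp2 came next, at 1.57 and 1.34 times, and Pdha1 changed 1.04 and 1.05 times. Over all libraries the order of mean levels was Pdha1, Pdk4, Pdk2, Pdk1, Pdp1, Pdp2 and Pdk3. From Pdk2 down each gene lay above the next in all 56 libraries, while Pdha1 was above Pdk4 in 44 and Pdk4 above Pdk2 in 23.

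Counted over the 7 members, 4 were rhythmic under NRF (Pdk2, Pdk4, Pdp1 and Pdp2) beside 37.2% of all genes tested, and 2 under DRF (Pdk4 and Pdp1) beside 32.3%. The same 2 were rhythmic under both regimens, beside 17.6% of genes. The rhythms of 5 members (Pdk1, Pdk2, Pdk4, Pdp1 and Pdp2) differed between the regimens by clock time, beside 27.6% of genes, and those of 2 members (Pdk4 and Pdp1) differed on the feeding clock, beside 41.4%. Pdk4 and Pdp1 thus differed on both clocks, beside 14.4% of genes. The fitted peaks of these 5 members came 5.14 to 10.9 h earlier under DRF. Around 12 h, where earlier and later meet on the 24 h clock, that direction was not kept: Pdk1 turned to 9.20 h later with median-of-ratios rescaling and 12.0 h later on the deposited values, and Pdp2 to 11.7 h later without ZT24.

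**Figure D4:**
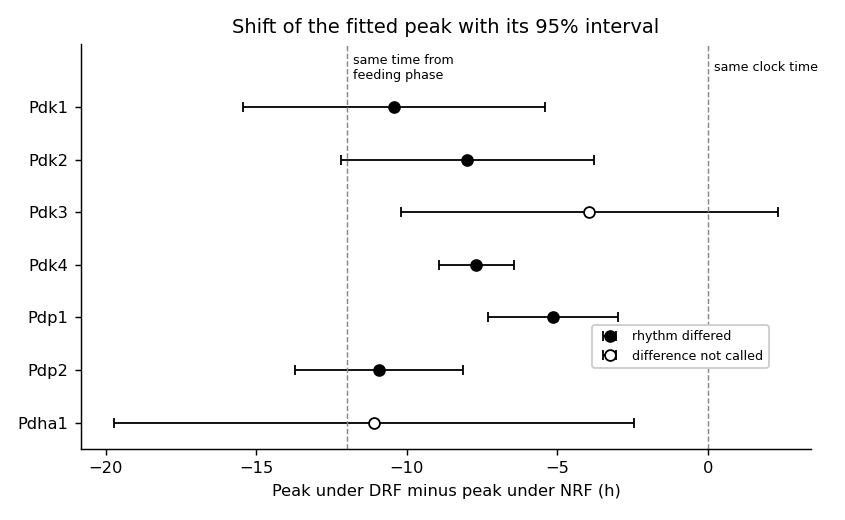
Time of the fitted peak under DRF minus that under NRF in h for the 7 members, with 95% intervals. Filled points are members whose rhythms differed between the regimens, and dashed lines mark no shift and the 12 h by which feeding was moved. The intervals of Pdk4 (6.44 to 8.94 h earlier) and Pdp1 (2.99 to 7.30 h earlier) reach neither line, and that of Pdp2 crosses the line at 12 h.

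In the plot of peak shifts the intervals of Pdk1, Pdk2, Pdp2 and Pdha1 hold a shift of 12 h, and that of Pdk3 holds 0. The shifts of Pdk3 and Pdha1 belong to waves that passed no test and are given for completeness. Pdk1 had no called rhythm under either regimen, and Pdk2 and Pdp2 had none under DRF. Only Pdk4 and Pdp1 had called rhythms under both. The interval of Pdk4, the narrowest, has a width set by an SE of 0.624 h, below the sampling step of 4 h, since it rests on all 56 libraries and on the shape of a single 24 h wave.

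Of the 49 pairs of a member and a ZT, 9 were called between the regimens (5 to 10 when libraries or replicate numbers were left out). At ZT0, 1 of 7 members was called (Pdk4, beside 11.4% of genes), at ZT8 1 (Pdk4, beside 0.396%), at ZT12 1 (Pdp1, beside 7.66%) and at ZT16 1 (Pdk4, beside 6.89%). At ZT20 there were 2 (Pdk4 and Pdp2, beside 14.9%) and at ZT24 3 (Pdk2, Pdk4 and Pdp2, beside 8.88%). At ZT4 limma called 0 members, beside 0.446% of genes, and 1 of 7, Pdp2, had an unadjusted p under 0.05. The members with an unadjusted p under 0.05 were 1 at ZT0 and at ZT8, 2 at ZT12, 3 at ZT16 and at ZT20 and 6 at ZT24. How many of all genes tested passed this unadjusted cut-off was not counted, so these numbers have no share to stand beside. Of the 42 pairs on the feeding clock, 6 were called (3 to 7 with libraries or replicate numbers left out): 1 at 0 h (Pdk4, beside 13.0%), 1 at 4 h (Pdk4, beside 6.40%), 1 at 8 h (Pdp2, beside 5.56%), 1 at 16 h (Pdp1, beside 22.7%) and 2 at 20 h (Pdk4 and Pdp1, beside 24.1%). At 12 h limma called 0, beside 9.84% of genes. On the feeding clock the members with an unadjusted p under 0.05 were 1 at 0 h and at 4 h, 4 at 8 h, 0 at 12 h and 2 at 16 h and at 20 h. The share of all genes under that cut-off was not counted here either.

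ZT24 repeats the clock time of ZT0, and limma called 0 of 7 members between them in either regimen, beside 0.468% of genes under DRF and 0.0576% under NRF. In each regimen 1 member had an unadjusted p under 0.05, a cut-off whose share over all genes was not counted. Pdp2 was higher at ZT24 than at ZT0 under DRF by 0.47 (adjusted p = 0.136, limma), and Pdk2 was lower at ZT24 under NRF by a difference of -0.21 (adjusted p = 0.360).

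The genes whose 14 group means of log2(TPM + 1) were most like those of Pdk4, the members aside, were Twf2 (Pearson r = 0.945), Angptl4 (0.926), Ehhadh (0.915), Acot1 (0.912) and Zfp110 (0.904). The 14 points share libraries and scaling, and the genes were picked by this measure, so the values are a description. Ehhadh is a peroxisomal enzyme of fatty acid oxidation, Acot1 cleaves fatty acyl-CoA, and Twf2 binds actin. On the log2(TPM + 1) scale the amplitude under DRF was 0.41 for Twf2, 1.70 for Angptl4, 0.64 for Ehhadh, 0.99 for Acot1 and 0.15 for Zfp110, beside 1.85 for Pdk4. The difference between genes was not tested, and the added 1 lowers the amplitude of genes of few TPM such as Angptl4. The ratio of the highest to the lowest group mean was 20.2 for Angptl4 under DRF and 15.97 under NRF, beside 19.5 and 8.95 for Pdk4, and 1.19 to 4.46 for the other 4 genes. At ZT20 Angptl4 was 34.5 ± 16.7 TPM under DRF and 3.66 ± 0.576 TPM under NRF, and Acot1 was 33.2 ± 7.04 and 6.70 ± 1.49 TPM (SD, n = 4). The peaks of these 5 genes came 6.44 to 8.29 h earlier under DRF, around the 7.69 h of Pdk4.

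**Figure D5:**
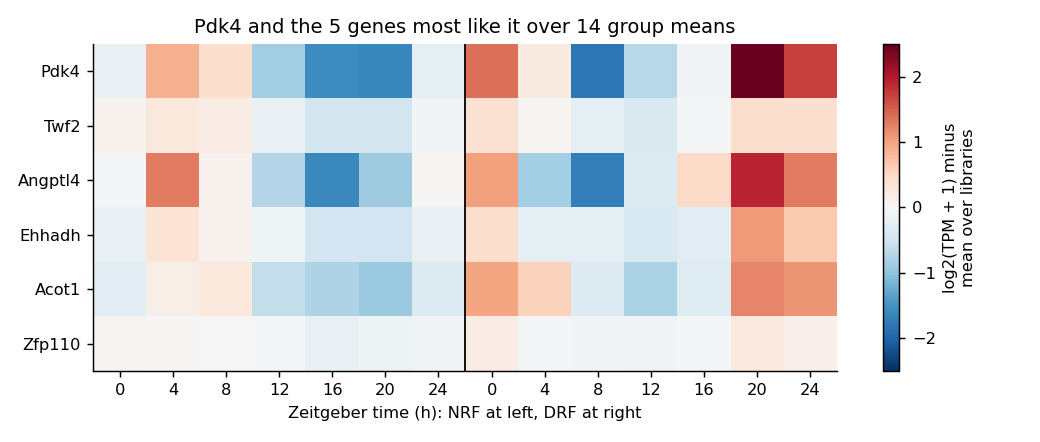
Mean log2(TPM + 1) of 4 libraries minus the mean over all 56 libraries, for Pdk4 and the 5 genes most like it, by zeitgeber time in h under NRF (left) and DRF (right), with red above and blue below the gene's own mean. All 6 genes are above their mean at ZT20 and ZT24 under DRF and below it at ZT16 and ZT20 under NRF.

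The heat map of Pdk4 and its nearest genes also shows NRF ZT4, where Angptl4 reached 29.8 ± 24.1 TPM, also uneven between libraries. Among the members themselves, the group means of Pdk4 correlated with those of Pdp2 at r = 0.631 and with those of Pdp1 at 0.0252 over the 14 groups. Pdk2 and Pdha1 had the highest correlation of any pair of members, 0.805. The points share libraries, and no test was made.

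Of 22 further genes of pyruvate metabolism (other subunits and assembly genes of the complex, transporters, lactate dehydrogenases and neighbouring enzymes), all were tested. There 10 were rhythmic under NRF (beside 37.2% of all genes tested), 5 under DRF (beside 32.3%) and 4 under both (beside 17.6%). The rhythms of 8 differed between the regimens by clock time (beside 27.6%) and those of 5 on the feeding clock (beside 41.4%). Slc16a1, a lactate and pyruvate transporter of the plasma membrane, had the lowest p, with its peak 8.47 h earlier under DRF (SE 1.23 h, adjusted p = 1.49e-05, limma). It was followed by Ppm1k, the phosphatase of the branched-chain keto acid complex (11.0 h earlier, adjusted p = 8.28e-05), Lias and Lipt1, which make and attach lipoate (5.91 h earlier and 11.1 h later, adjusted p = 0.00309 and 0.00347), and Pdpr, the regulatory subunit of the phosphatase (8.32 h earlier, adjusted p = 0.00722). The differences of Lias and Pdpr were lost without replicate 3 or 4 (adjusted p from 0.0554 to 0.0729), and that of Lipt1 without ZT12 (0.170). That of Pdpr was also lost without ZT12 or ZT24 (0.0861 and 0.0564). Lipt1 had no called rhythm under NRF (adjusted p = 0.496), and the 95% interval of its shift, 4.87 to 17.3 h, held 12 h, where earlier and later cannot be told apart. The intervals of Ppm1k and Pdpr held 12 h as well, and Lias and Pdpr had no called rhythm under DRF (0.0640 and 0.296). In mean level 1 gene, Cs (citrate synthase), was higher under DRF (0.089, adjusted p = 0.0122), beside 1.69% of all genes tested, and 1, Slc16a1, lower (-0.16, adjusted p = 0.00801), beside 24.3%. The median difference in level was -0.0057 in the list and -0.051 over all genes tested.

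Pdhb, Dlat, Dld and Pdhx, which encode the other subunits of the complex, did not pass any of these tests, and neither did Pdha1. Their rhythm differences had adjusted p of 0.624, 0.511, 0.611 and 0.531. Pdhb stood at 380 ± 24.5 TPM under NRF and 390 ± 28.6 TPM under DRF (SD, n = 28).

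A list of 19 genes known to regulate Pdk expression or fuel use (PPARs and their coactivators, forkhead factors, glucocorticoid and insulin signalling and clock repressors) was also tested in full. There 9 were rhythmic under NRF, 11 under DRF and 6 under both, beside the same 37.2%, 32.3% and 17.6% of all genes tested. The rhythms of 10 differed between the regimens by clock time (beside 27.6%) and of 10 on the feeding clock (beside 41.4%). Foxo3, a forkhead factor active in fasting, peaked at ZT13.0 under NRF and 5.13 h later under DRF (SE 0.939 h, adjusted p = 2.10e-05, limma), in the direction opposite to Pdk4. Foxo1, its relative, and Insr, the insulin receptor, peaked 9.43 and 9.44 h earlier (adjusted p = 0.00356 and 0.00201), with intervals that held 12 h and no called rhythm under NRF (0.0666 and 0.239). The difference of Foxo1 was lost without replicate 3 (adjusted p = 0.0732) and that of Insr without ZT12 (0.0673).

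Nr1d1, the clock repressor REV-ERB alpha, and Cebpb, a factor of the fasting and stress response, completed the 5 regulators with the lowest p. Nr1d1 moved by 0.78 h earlier (SE 0.326 h) between ZT8.15 under NRF and ZT7.37 under DRF, while its wave had an amplitude of 2.06 in NRF hearts and 1.53 in DRF hearts (adjusted p = 0.00300, limma). On the feeding clock its adjusted p was 2.66e-24, so the rhythms of Nr1d1 were far apart once time was counted from feeding. Cebpb peaked 3.97 h later under DRF (adjusted p = 0.00390). The difference was lost without replicate 2 or 3 or ZT12 for Nr1d1 (adjusted p = 0.0593, 0.0729 and 0.0592) and without replicate 2 or ZT12 for Cebpb (0.0986 and 0.0826). Nr1d1 overlaps Thra on the opposite strand, so their reads may be mixed. In mean level 1 of the 19, Ppargc1a, a coactivator of oxidative metabolism, was higher under DRF by 0.27 (adjusted p = 0.000430), beside 1.69% of all genes tested. The other 4 called (Ppard, Ppargc1b, Nr3c1 and Rxra) were lower, by differences of -0.16, -0.19, -0.094 and -0.11, beside 24.3% of all genes, a share near that of the list. Levels of these listed genes were not recomputed with other scalings. Ppara, the fatty acid receptor known to induce Pdk4, was at 19.9 TPM under NRF and 19.7 TPM under DRF as means over 28 libraries, and passed none of these tests.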

How the data were processed

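PolyA RNA-seq values of 56 hearts were used. The submitters' processing notes name HISAT2 2.0.5, featureCounts 1.5.0-p3 and mm10, and the use of strand is not given in the sources used here. The deposited values, described as TPM by the authors, were found to be of an other unit: a library constant multiplied by log2(1 + scaled reads) and divided by exon length. Whole reads were recovered with GENCODE M21 exon lengths (GRCm38) for 96.1% of genes and searched lengths for 829 others, and up to a limit of 30000 reads, 99.9991% (of 1274227) lay less than 0.1 from a whole number. Above that limit, which 12 values of Pdk4 and 34 of Pdha1 passed, every value of these 2 genes did too. For 72 genes too abundant for this check the annotated length was kept, and 1 unresolved gene was left out. Linear TPM was recomputed (Python 3.11.15). The recovered reads summed to 29480609 to 53323418 in a library.

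Tests used limma 3.58.1 in R 4.3.3, with trended variances, on log2(TPM + 1) for the 13886 genes whose average reached 1 TPM, with Benjamini-Hochberg adjustment over all of them (threshold 0.05). They were a 24 h wave in each regimen, its interaction with regimen on clock and feeding time, the mean level, and contrasts of 14 group means with 1 shared spread. The scripts were tested on simulated data. Members, lists and motifs were chosen with earlier results of these data known. Genes named were the 7 members, the 5 most like Pdk4 and the 5 of each list with the lowest p in the rhythm difference. Cs, Pdhb, Dlat, Dld, Pdhx, Ppara and the regulators called in mean level were named after their values were seen. Alternatives were another pseudocount, no filter, other scalings, the deposited values, a replicate block, other rhythm tests, and leaving out replicates, ZTs or libraries. Covariates of atrial, adipocyte and erythrocyte marker sums were added after seeing the data.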

Additional observations from a re-analysis of the deposited data

Results flagged for a closer look

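In 9 of 98 groups of 4 libraries, 1 library stood apart from the other 3 by Dixon's ratio of its gap to the range of the group, above its 95% critical value, where chance gives about 1 in 20 groups. DRF ZT20 replicate 2 was such a library for Pdk1 (ratio 0.877) and for Pdha1 (0.8294). For Pdk2 they were NRF ZT4 replicate 2 (0.854) and NRF ZT16 replicate 3 (0.831), and for Pdk3 DRF ZT0 replicate 3 (0.907) and DRF ZT24 replicate 2 (0.871). For Pdk4 it was DRF ZT8 replicate 2 (0.867), with 93.0 TPM against 54.9 to 59.97 TPM in the others. NRF ZT16 replicate 2 stood apart for Pdp2 (0.859) and NRF ZT8 replicate 1 for Pdha1 (0.837).

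The daily rhythm differed between DRF and NRF by the interaction test of limma for 5 members, with an adjusted p of 0.0172 for Pdk1, 0.0162 for Pdk2, 2.85e-10 for Pdk4, 0.00112 for Pdp1 and 7.05e-05 for Pdp2.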

How the results depend on the processing

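Of 1758 recomputed values, 1592 kept their direction and side of the threshold or moved by less than their error. The number of members rhythmic under DRF, 2, was 4 without ZT0, without ZT4 or without ZT8 and 1 without ZT16, and the number whose rhythms differed, 5, was 3 without ZT12, without ZT24 or with an F test over 6 clock phases. The number called in mean level, 1, was 4 with median-of-ratios rescaling, 3 with TPM without mitochondrially encoded genes, 0 by limma without ZT12 and 3 with the marker sums as covariates. Leaving out a replicate or library gave 3 to 3 members rhythmic under NRF, 2 to 3 under DRF, 3 to 5 with different rhythms, 2 to 2 on feeding time (3 without ZT0 or without ZT8, with Pdk3 added), 1 to 1 in level, 5 to 10 calls at single ZTs, 3 to 7 at food phases, 0 to 0 between ZT24 and ZT0, and a difference of 11.2 to 15.6 percentage points in the Pdk4 share.

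Differences that changed sign were those in level of Pdk3 (0.0065 with median-of-ratios rescaling, 0.0018 without ZT16), Pdp1 (0.020 with median-of-ratios rescaling) and Pdp2 (-0.046 without replicate 1, -0.089 without ZT8, -0.054 without ZT20, -0.014 without ZT24), and those of Pdk4 at ZT4 (0.10 without replicate 3) and ZT12 (-0.10 without NRF ZT12 replicate 4). Leaving out replicates or libraries gave -0.046 to 0.060 for the level of Pdp2, -1.30 to 0.10 for Pdk4 at ZT4 and -0.10 to 0.35 at ZT12. None of these was called, and the cause was not tested. The peak of Pdk1, 10.4 h earlier under DRF, became 9.20 h later on the 24 h clock with median-of-ratios rescaling and 12.0 h later on the deposited values, and that of Pdp2 became 11.7 h later without ZT24. Genes called lower in level under DRF, 3373, were 1021 with median-of-ratios rescaling, 1244 without mitochondrially encoded genes, 1564 on the deposited values and 1094 without replicate 3, and those called higher, 234, were 808, 368, 399 and 84.

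Of 28 pairs of same-numbered libraries at a ZT, 1 had a correlation of deviations over 0.1 (median -0.0323), so the numbers were not taken to pair the samples. Among all other groups 21 of 56 libraries correlated best with one of their own number, where 14 are expected by chance. With a replicate block, 3 members were rhythmic under NRF (Pdk2 no longer, adjusted p = 0.0504, limma), 3 under DRF (Pdk1 added, adjusted p = 0.0417), 5 differed in rhythm, 2 differed on feeding time, 1 differed in level, and 9, 6 and 0 calls were made at ZTs, at food phases and between ZT24 and ZT0. In these bulk libraries depth limits Pdk3 most, with 105 to 283 reads.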
